A study of Homo sapiens with 8 samples.

Results

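The genes described here are the ATR checkpoint, Fanconi anaemia and homologous recombination genes. They were taken by gene symbol from the count table: 45 of its 57992 genes, of which 17 belong to the checkpoint, 17 to homologous recombination and 11 to the Fanconi pathway. Of these, 44 had enough reads to be tested, and ATRIP, the partner that carries ATR to single-stranded DNA, did not. ATRIP has 2 rows in the table, each with 2 to 14 counts per library. The 2 rows also overlap each other: both start at chr3:48446710 on the plus strand, and they end at 48465716 and 48467645. Both rows cover a locus where ATRIP and TREX1 overlap, and TREX1 had 0 counts in all libraries. How reads in overlapping genes were counted is not given. The low counts therefore cannot show whether ATRIP was expressed.

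The mRNA of 2 established human acute myeloid leukaemia lines was sequenced after 10 mM dG, as the labels name the compound, and after the vehicle PBS. U937 is a line of monoblast character, and KG1A is a more immature one marked by CD34, an antigen of blood stem cells. The 4 groups were KG1A in PBS, KG1A in dG, U937 in PBS and U937 in dG, with 2 libraries each. All were grown in RPMI medium with dialyzed serum, and the time of treatment was not given in the sources used here. The series' title concerns disturbed deoxynucleotide pools and the maturation of leukaemic cells, and the comparisons below ask how dG moved the mRNA of the replication stress and repair machinery in each line.

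When DNA polymerases stall, for example because a deoxynucleotide runs short, single-stranded DNA coated with the protein RPA accumulates at the fork and recruits the kinase ATR, which phosphorylates CHEK1 and so holds back mitosis and new origins. The Fanconi pathway recognises forks blocked by crosslinks and attaches ubiquitin to the FANCD2-FANCI pair. Homologous recombination, led by BRCA1 and BRCA2, rebuilds broken forks from the sister chromatid. Many genes of these pathways are transcribed chiefly in S phase and are known targets of E2F factors.

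Library totals ran from 21053724 to 31135338 counts. Libraries of the same group had a mean chi-square of 1.8 to 2.2 per gene, above the 1 of pure sampling, and their log2 CPM correlated at 0.9978 to 0.9983. CD34 lay at 930.1 to 1194 CPM in KG1A and at no more than 0.776 CPM in U937, and the 6 myeloid markers used for U937 summed to 997 to 1744 CPM there and to at most 2.45 CPM in KG1A. Of the markers of other cells, 4 T lymphocyte genes summed to 105 to 125 CPM in KG1A and 4 B lymphocyte genes to 17.1 to 23.0 CPM in U937. The erythroid genes were at 0 in KG1A and at most 0.215 CPM in U937, and the epithelial genes did not exceed 0.0866 CPM. Fibroblast genes summed to 1.53 to 4.61 CPM. Whether the replicates came from separate cultures is not stated in the labels, and p-values therefore reflect only the spread among these samples, which may be technical. In bulk RNA, a smaller share of cells in one phase or state and less mRNA per cell cannot be told apart.

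Because many of these genes share E2F regulation, their promoters were searched for 4 E2F words on both strands: TTTCCCGC, TTTCGCGC, TTTGCCGC and TTTGGCGC, or their reverse complements. The windows, from RefSeq on GRCh38.p14, run from 250 bases before each start site to 50 bases from it on, and 38 of the 44 tested genes had one. A gene with several start sites had several windows, and it counted as holding a word if any of them did. A word was found in 9 of the 38 (23.7%), beside 685 of the 10454 tested genes with a window (6.55%). The stretches around these words are shown for the 9 genes, since their values follow, 5′ to 3′ on the gene's strand and with the words in capitals. In TIPIN, 2 words on opposite strands overlap.
CLSPN: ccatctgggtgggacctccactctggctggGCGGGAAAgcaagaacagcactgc
TOPBP1: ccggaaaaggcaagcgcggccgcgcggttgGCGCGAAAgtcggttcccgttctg
TIPIN: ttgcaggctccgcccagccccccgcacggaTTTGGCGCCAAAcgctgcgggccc
EXO1: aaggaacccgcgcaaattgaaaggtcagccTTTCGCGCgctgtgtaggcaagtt
XRCC2: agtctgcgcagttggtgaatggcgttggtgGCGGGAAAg
RMI1: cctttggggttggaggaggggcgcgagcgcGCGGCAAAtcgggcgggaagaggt
FANCD2: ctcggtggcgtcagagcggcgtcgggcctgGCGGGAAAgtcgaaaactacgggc
FANCA: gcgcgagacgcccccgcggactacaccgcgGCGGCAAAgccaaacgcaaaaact
FANCC: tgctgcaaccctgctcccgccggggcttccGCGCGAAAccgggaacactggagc

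On GRCh38.p14 these stretches lie at chr1:35769960-35770013 (CLSPN, minus strand), chr3:133661925-133661978 (TOPBP1, minus), chr15:66356728-66356781 (TIPIN, minus), chr1:241848178-241848231 (EXO1, plus), chr7:152676112-152676150 (XRCC2, minus), chr9:83980743-83980796 (RMI1, plus), chr3:10026405-10026458 (FANCD2, plus), chr16:89816796-89816849 (FANCA, minus) and chr9:95317858-95317911 (FANCC, minus). The words shown for FANCA and FANCC begin 172 bases before a start site, and FANCC holds another, TTTCCCGC, 46 bases before it. Of the 9 genes with a word, 7 passed the threshold as higher in KG1A, and 1 as higher and 6 as lower in U937. The 7 include TOPBP1, whose KG1A call held in 4 of 17 alternative settings. Of all 685 genes with a word, 250 were higher and 160 lower in KG1A, and 234 higher and 289 lower in U937. Of the 29 members without one, 14 were higher and 4 lower in KG1A, and 9 were higher and 17 lower in U937. Of all 9769 genes without one, 3487 were higher and 2194 lower in KG1A, and 3774 higher and 3208 lower in U937. The CHR element (TTTGAA or TTCGAA, either strand), a promoter word of G2/M genes, was found in 18.4% of the members with a window. Of all tested genes with a window, 16.1% held it. The CCAAT box was found in 60.5% of these members and 43.0% of these genes. These matches describe letters in a window and show no binding.

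In KG1A, dG was followed by modestly higher mRNA of 24 of the 44 genes tested, and in U937 the larger part of them fell. In KG1A 5 fell and 15 did not pass the threshold of an adjusted p of 0.05 (edgeR's quasi-likelihood test, Benjamini-Hochberg adjustment over 18314 genes). In U937, 12 rose, 27 fell and 5 did not pass. The count of higher genes in KG1A was 21 with DESeq2's size factors, library size alone, no filter on low counts or the line fitted alone, 21 without either U937 dG library, and 17 to 19 on the deposited RPKM values. Over all genes tested, 29.6% were higher and 19.6% lower in KG1A, and 32.4% were higher and 31.5% lower in U937. The median log2 fold change of the members was 0.12 in KG1A, beside 0.04 for all genes, and -0.24 in U937, beside 0 for all genes. No member changed 2-fold in KG1A, and 3 did in U937: FANCF, TIPIN and XRCC2, which all fell. Without the second U937 dG library, where the all-gene medians shifted by -0.07 and 0.06, the medians of the members were 0.0556 and -0.139, and without the first they were 0.0557 and -0.18. The count of lower members in KG1A then rose from 5 to 8, and it was 3 without the first KG1A PBS library.

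The effects of dG were compared between the lines by the interaction term of the same model, here always the U937 effect minus the KG1A effect. It was negative and past the threshold for 33 members and positive for 5, beside 26.4% and 17.6% of all genes tested. With DESeq2's size factors in the same fit, which shift the median difference of all genes by 0.10, the all-gene split went from 3230 higher and 4841 lower to 4021 and 3898, and that of the members to 5 and 27. Of the members, 13 rose in KG1A and fell in U937 (all genes: 4.93%), 7 rose in both lines (15.4%), 4 fell in both (13.1%) and 1, HUS1, fell in KG1A and rose in U937 (2.51%). The remaining genes passed the threshold in 1 line or neither. Among the 13, the KG1A rises of CHEK1, TOPBP1 and NBN (0.09, 0.09 and 0.08) passed in 3, 4 and 1 of 17 alternative settings. The U937 falls of TOPBP1, BRCA2, FANCI and RMI1 passed in 9, 13, 14 and 15 of 17. The interactions of TOPBP1, RAD17, PALB2, RAD50, RAD51AP1, FANCC and UBE2T, all under 0.4 in size, passed in 3 to 9 of 16 alternative settings, and that of RAD51AP1 was 0.00544 without the second U937 dG library. The interaction of FANCG (-0.35) passed in 10 settings and was lost without the first U937 dG library (adjusted p = 0.45). The interaction of BLM, -0.255, passed in 13 settings. Without the first or the second U937 dG library it was -0.114 and -0.139 and did not pass (adjusted p = 0.161 and 0.0791). Across the 44 genes the log2 fold changes of the lines correlated weakly (Pearson r = 0.334, Spearman rho = 0.294), and across all 18314 genes r was 0.249 and rho 0.363, with genes that are not independent of each other.

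**Figure D1:**
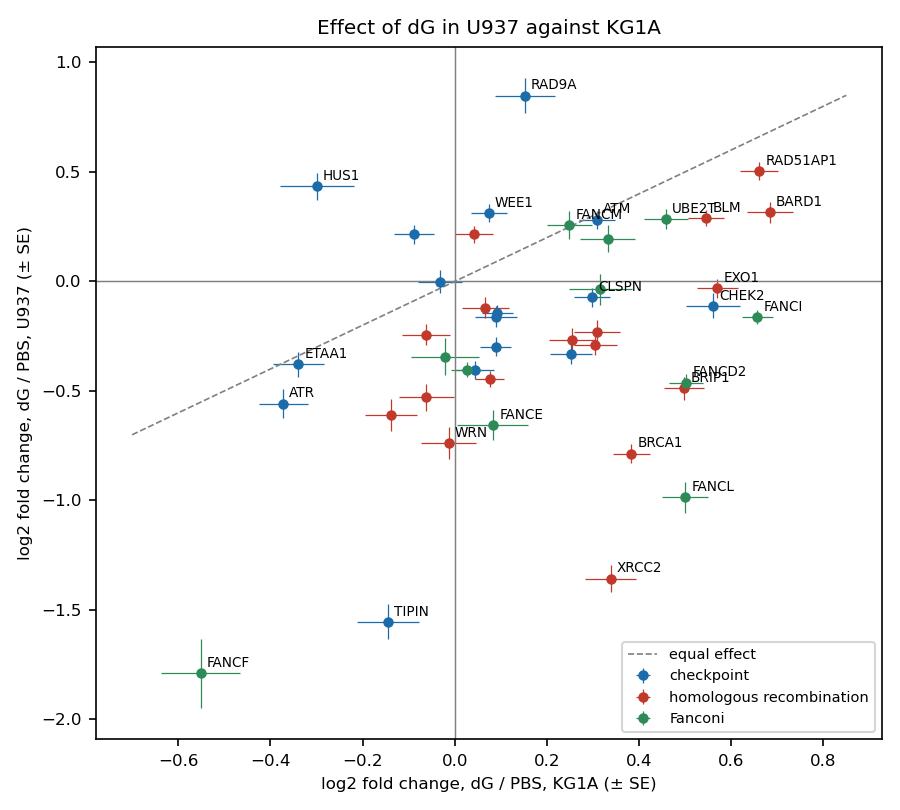
Log2 fold change (dG over PBS) of each tested member in U937 (y axis) against KG1A (x axis), with standard errors, coloured by class. The dashed line marks equal effects. Most points lie below it, 13 genes sit in the lower right corner with both effects past the threshold, and FANCF, TIPIN and XRCC2 lie lowest. Of the 13, CHEK1, TOPBP1 and NBN lie near the vertical axis, with KG1A calls that few alternative settings kept.

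**Figure D2:**
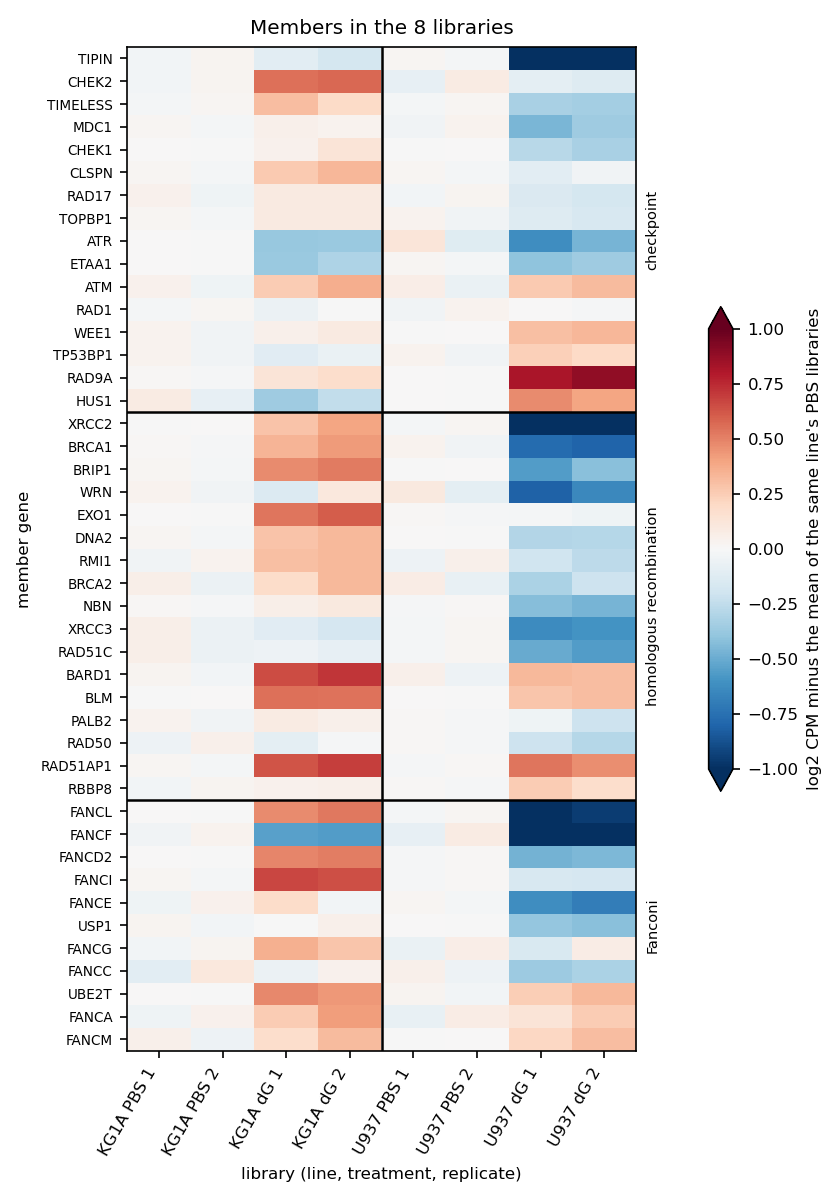
Log2 CPM of the 44 tested members in each of the 8 libraries, relative to the mean of the PBS libraries of the same line; rows are grouped by class and ordered by the difference between the lines, and the colour scale is clipped at 1 in both directions. Both dG libraries of a line look alike, red for most recombination and Fanconi genes in KG1A and blue for most in U937.

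Within the checkpoint, the kinase ATR and its activator ETAA1 fell in both lines. ATR lay at 87.5 and 86.6 CPM in KG1A with PBS and at 67.1 and 67.4 CPM with dG, and at 49.0 and 41.4 CPM in U937 with PBS and 29.3 and 32.6 CPM with dG. The dG libraries were below the PBS libraries in each line, without overlap, and the log2 fold changes were -0.37 ± 0.053 (SE, adjusted p = 2.32e-07) and -0.56 ± 0.066 (adjusted p = 2.05e-09). The difference between the lines, -0.18 ± 0.085, did not pass the threshold (adjusted p = 0.0758). Of the exon bases of ATR, 16.4% overlap a gene on the other strand. ETAA1, which binds RPA, fell from 44.7 and 44.2 to 34.4 and 35.9 CPM in KG1A and from 42.6 and 41.5 to 31.8 and 33.0 CPM in U937. Its log2 fold changes were -0.34 ± 0.055 (adjusted p = 2.57e-06) and -0.38 ± 0.058 (adjusted p = 4.23e-07), and their difference was -0.04 ± 0.080. TOPBP1, the other activator of ATR and a scaffold at stalled forks, moved little: its values were 264 and 257 against 278 and 277 CPM in KG1A, and 216 and 205 against 193 and 188 CPM in U937. Both its calls, 0.09 ± 0.034 (adjusted p = 0.0234) and -0.14 ± 0.036 (adjusted p = 0.000611), were lost with DESeq2's size factors (adjusted p = 0.0521 and 0.206) and without either U937 dG library (0.611 and 0.614 in KG1A, 0.0698 and 0.272 in U937). Its KG1A call also ended without the second KG1A PBS library (adjusted p = 0.202) or either KG1A dG library (0.0763 and 0.0662).

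CHEK1, the effector kinase of ATR, differed most between the lines before treatment. It lay at 305 and 302 CPM in KG1A with PBS, at 314 and 333 CPM with dG, at 87.2 and 87.6 CPM in U937 with PBS and at 72.2 and 69.95 CPM with dG. In PBS its level was lower in U937 by a log2 fold change of -1.80 ± 0.038 (adjusted p = 5.07e-32), the lowest baseline difference among the 44 genes. With dG it fell in U937 by 0.30 ± 0.043 on the log2 scale (adjusted p = 1.84e-07). In KG1A the change was 0.09 ± 0.034 (adjusted p = 0.029) and the call held in only 3 of 17 alternative settings. CHEK2, the effector kinase of ATM, rose in KG1A from 31.8 and 33.0 to 47.5 and 48.4 CPM (0.56 ± 0.059, adjusted p = 3.11e-10). In U937 its libraries read 46.8 and 52.7 CPM in PBS and 46.3 and 45.4 CPM in dG (-0.11 ± 0.057, adjusted p = 0.0863), and the interaction was -0.67 ± 0.082 (adjusted p = 1.04e-08). ATM itself, the kinase of the double-strand break response, rose in both lines, from 272 and 257 to 316 and 340 CPM in KG1A and from 180 and 164 to 205 and 213 CPM in U937. Its log2 fold changes were 0.31 ± 0.040 (adjusted p = 2.58e-08) and 0.28 ± 0.042 (adjusted p = 2.74e-07), so the upstream kinases ATM and ATR moved in opposite directions in each line.

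The fork protection complex of TIMELESS, TIPIN and Claspin links the polymerases to checkpoint signalling. TIPIN lay at 27.03 and 28.1 CPM in KG1A with PBS and at 25.5 and 24.3 CPM with dG (-0.14 ± 0.067, adjusted p = 0.0727). In U937 it fell from 30.3 and 29.6 to 10.7 and 9.60 CPM, a log2 fold change of -1.55 ± 0.080 (adjusted p = 4.48e-19), and the interaction was -1.41 ± 0.11 (adjusted p = 7.64e-14). Both U937 dG libraries stood far below the other 6 libraries. In the GENCODE 29 annotation, 21% of its exon bases are shared with the pseudogene RPL9P25, so its level is uncertain. TIMELESS, its partner, rose in KG1A from 66.9 and 68.5 to 83.7 and 77.5 CPM (0.25 ± 0.046, adjusted p = 1.42e-05) and fell in U937 from 103 and 107 to 83.8 and 82.9 CPM (-0.33 ± 0.044, adjusted p = 3.1e-08). CLSPN, which encodes Claspin, the adaptor that presents CHEK1 to ATR, rose in KG1A from 124 and 121 to 147 and 154 CPM (0.30 ± 0.040, adjusted p = 5.32e-08). In U937 it read 90.2 and 87.5 CPM in PBS and 82.6 and 86.5 CPM in dG (-0.07 ± 0.043, adjusted p = 0.143). In U937 the members of this complex thus differed widely in their change, with TIPIN far lower and CLSPN not past the threshold.

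RAD9A, RAD1 and HUS1 form the ring-shaped 9-1-1 clamp, which RAD17 loads onto DNA beside TOPBP1. RAD9A rose in U937 from 12.3 and 12.2 to 21.5 and 22.6 CPM (0.85 ± 0.078, adjusted p = 5.97e-12), the largest rise of any member in that line, and read 26.6 and 26.0 against 28.7 and 29.7 CPM in KG1A (0.15 ± 0.065, adjusted p = 0.0509). HUS1 rose in U937 from 35.1 and 34.8 to 48.5 and 46.0 CPM (0.43 ± 0.060, adjusted p = 7.37e-08) and fell in KG1A from 19.02 and 16.9 to 14.0 and 15.1 CPM (-0.30 ± 0.080, adjusted p = 0.0019). Without the first KG1A PBS library the KG1A call of HUS1 ended (adjusted p = 0.0565). RAD1 moved in neither line past the threshold, with 45.8 to 65.2 CPM over all libraries and log2 fold changes of -0.03 ± 0.048 and -0.0015 ± 0.052. The 3 clamp subunits therefore showed 3 patterns. The interaction was 0.70 ± 0.10 for RAD9A (adjusted p = 4.44e-07) and 0.73 ± 0.10 for HUS1 (adjusted p = 1.16e-07). RAD17 changed by -0.16 ± 0.049 in U937 (adjusted p = 0.0046, lost with DESeq2's size factors at 0.216 and without either U937 dG library at 0.123 and 0.273) and by 0.09 ± 0.046 in KG1A (adjusted p = 0.102).

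Other checkpoint genes moved in U937 and not past the threshold in KG1A. WEE1, the kinase that holds CDK1 inactive, rose in U937 from 75.3 and 75.7 to 92.8 and 94.8 CPM (0.31 ± 0.043, adjusted p = 5.89e-08), beside 125 and 120 against 127 and 130 CPM in KG1A (0.07 ± 0.039). TP53BP1, the chromatin protein that steers breaks towards end joining, rose in U937 from 102 and 96.8 to 117 and 114 CPM (0.21 ± 0.042, adjusted p = 3.13e-05). MDC1, the scaffold that binds phosphorylated histone at breaks, fell in U937 from 146 and 153 to 109 and 117 CPM (-0.41 ± 0.041, adjusted p = 5.79e-11). The interaction passed for each: 0.24 ± 0.058 for WEE1, 0.30 ± 0.061 for TP53BP1 and -0.45 ± 0.058 for MDC1. In all, 6 of 16 tested checkpoint genes rose and 3 fell in KG1A (37.5% and 18.8%, beside 29.6% and 19.6% of all genes tested). In U937, 5 rose and 8 fell (31.2% and 50%, beside 32.4% and 31.5%). TP53BP1 shares 28.7% of its exon bases with TUBGCP4 on the other strand, and in KG1A its change of -0.09 ± 0.044 (adjusted p = 0.0941) passed the threshold in 7 of 17 alternative settings, as that of TIPIN did.

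**Figure D3:**
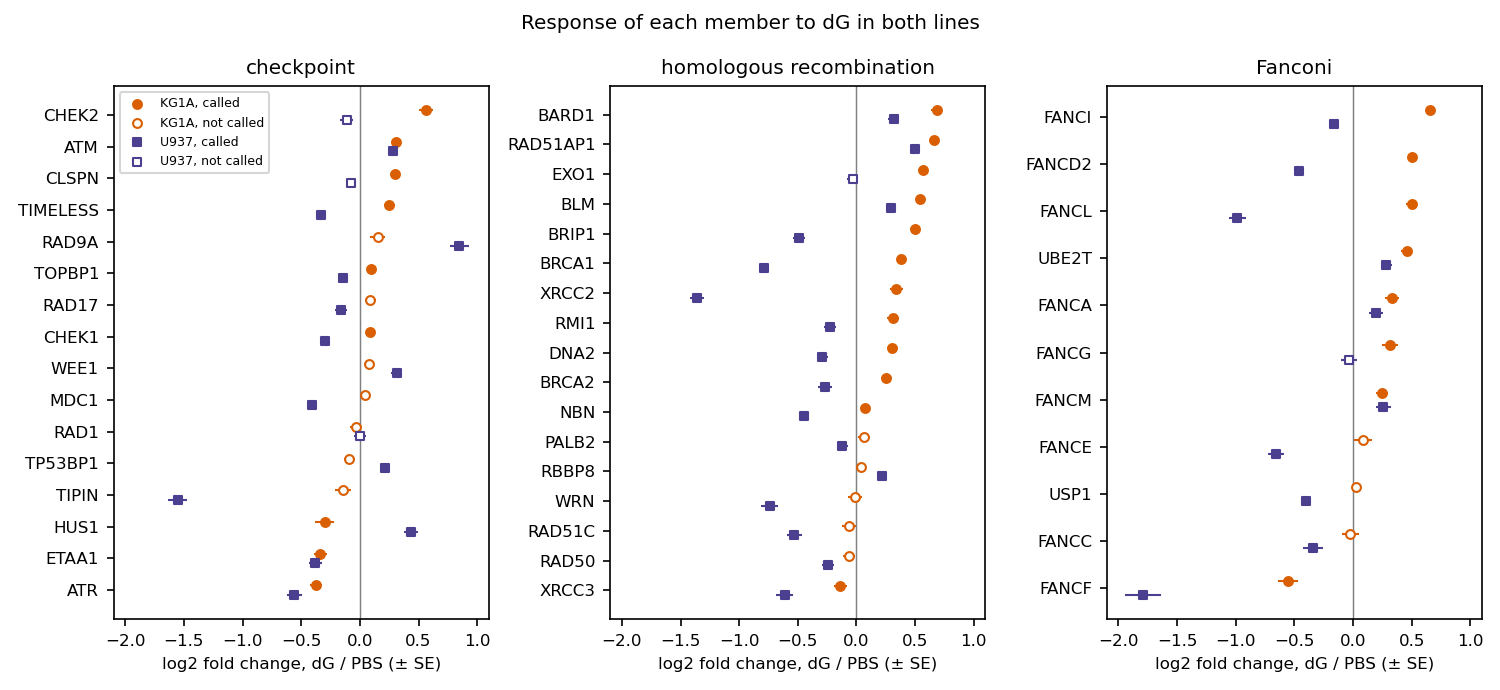
Log2 fold change of dG over PBS (x axis, ± SE) for each tested member by class, with circles for KG1A and squares for U937; filled symbols passed an adjusted p of 0.05. Genes are ordered by their KG1A change. In the recombination and Fanconi panels the squares lie left of the circles for most genes, while RAD9A, HUS1, WEE1 and TP53BP1 in the checkpoint panel have squares to the right.

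Of the 17 homologous recombination genes, 11 rose and 1 fell in KG1A (64.7% and 5.88%, all genes: 29.6% and 19.6%). In U937, 4 rose and 12 fell (23.5% and 70.6%, all genes: 32.4% and 31.5%). Those that both rose in KG1A and fell in U937 were 7: BRCA1, BRCA2, BRIP1, XRCC2, RMI1, DNA2 and NBN. The KG1A call of NBN held in 1 of 17 alternative settings. The interaction was negative and past the threshold for 16 of the 17 (94.1%, all genes: 26.4%), RBBP8 being the exception (0.17 ± 0.057, adjusted p = 0.0123). The interaction of RBBP8 did not pass without the second KG1A PBS library (adjusted p = 0.0959) or the second U937 PBS library (adjusted p = 0.0511). BRCA1, the ubiquitin ligase that licenses end resection, lay at 99.9 and 98.6 CPM in KG1A with PBS and 126 and 133 CPM with dG. In U937 it lay at 144 and 137 CPM with PBS and 82.3 and 80.2 CPM with dG. The libraries did not overlap in either line, and the order of the lines turned: U937 was higher in PBS and KG1A in dG. The log2 fold changes were 0.38 ± 0.041 (adjusted p = 5.26e-10) in KG1A and -0.79 ± 0.042 (adjusted p = 1.91e-18) in U937, with an interaction of -1.17 ± 0.059 (adjusted p = 1.55e-18). BARD1, the obligate partner of BRCA1, moved in its direction in KG1A and against it in U937. It rose in both lines, from 48.6 and 46.6 to 74.6 and 78.2 CPM in KG1A (0.68 ± 0.049, adjusted p = 2.49e-14) and from 65.8 and 61.2 to 79.7 and 78.8 CPM in U937 (0.32 ± 0.048, adjusted p = 3.94e-07).

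BRCA2, a central mediator of recombination, rose in KG1A from 90.7 and 83.5 to 99.0 and 109 CPM and fell in U937 from 68.2 and 61.6 to 52.1 and 56.1 CPM. Its log2 fold changes were 0.26 ± 0.050 (adjusted p = 4.97e-05) and -0.27 ± 0.057 (adjusted p = 9.3e-05). On the deposited RPKM values with a pseudocount of 1, tested with limma, neither passed (adjusted p = 0.0989 and 0.0752), and the U937 call also ended without the first U937 dG library (adjusted p = 0.0745). PALB2, the bridge between BRCA1 and BRCA2, moved by 0.07 ± 0.051 in KG1A and -0.12 ± 0.049 in U937 (adjusted p = 0.032, lost in 8 of 17 settings, among them the omission of the first U937 PBS library at 0.13 or the second U937 dG library at 0.81). BRIP1, the BRCA1-bound helicase, rose in KG1A from 86.2 and 83.7 to 118 and 122 CPM (0.50 ± 0.043, adjusted p = 3.67e-12) and fell in U937 from 54.9 and 55.1 to 37.3 and 41.2 CPM (-0.49 ± 0.053, adjusted p = 3.99e-10). BRIP1 thus moved like BRCA1 in direction in both lines.

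Among the factors that act with BRCA2 in strand exchange, XRCC2 showed the widest gap between the lines of all 44 genes. It rose in KG1A from 40.03 and 40.2 to 48.9 and 52.6 CPM (0.34 ± 0.054, adjusted p = 2.08e-06). In U937 it fell from 57.7 and 59.2 to 22.0 and 23.7 CPM (-1.36 ± 0.060, adjusted p = 5.43e-21). The interaction was -1.70 ± 0.082 (adjusted p = 3.74e-19). XRCC2 spans chr7:152644779-152676165 on the minus strand, shares no exon base with another gene in GENCODE 29, and carries the E2F word shown above, which begins 21 bases past a start site. RAD51C, which pairs with XRCC3, fell in U937 from 37.2 and 38.4 to 26.6 and 25.6 CPM (-0.53 ± 0.063, adjusted p = 2.65e-09), with -0.06 ± 0.060 in KG1A. XRCC3 fell in both lines, from 46.8 and 43.0 to 41.5 and 39.9 CPM in KG1A (-0.14 ± 0.057, adjusted p = 0.0429) and from 25.4 and 26.2 to 16.7 and 17.1 CPM in U937 (-0.61 ± 0.073, adjusted p = 2.76e-09). The KG1A call of XRCC3 was lost under 5 of 17 settings, among them the omission of the first KG1A PBS library (adjusted p = 0.375) or of either KG1A dG library (0.0508 and 0.207), and 76.7% of its exon bases are shared with KLC1 on the other strand. RAD51AP1, a cofactor of strand invasion, went the other way: it rose from 84.2 and 82.2 to 129 and 134 CPM in KG1A (0.66 ± 0.041, adjusted p = 5.01e-16) and from 81.1 and 82.7 to 119 and 113 CPM in U937 (0.50 ± 0.042, adjusted p = 4.69e-13).

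The helicases and nucleases that process the recombining ends divided as well. BLM, the helicase that dissolves crossed-over intermediates, rose in both lines, from 86.8 and 87.2 to 128 and 127 CPM in KG1A (0.55 ± 0.039, adjusted p = 1.6e-14) and from 165 and 165 to 199.9 and 204 CPM in U937 (0.29 ± 0.035, adjusted p = 4.84e-09). RMI1, its complex partner, rose in KG1A (0.31 ± 0.050, adjusted p = 2.19e-06) and fell in U937 (-0.23 ± 0.051, adjusted p = 0.000181). Its U937 call ended without the second U937 dG library (adjusted p = 0.0752) and with the DESeq2 Wald test (adjusted p = 0.0673). WRN, a helicase related to BLM, read 78.2 and 74.5 against 69.6 and 81.9 CPM in KG1A and fell in U937 from 52.8 and 46.3 to 28.2 and 31.6 CPM (-0.74 ± 0.072, adjusted p = 2.56e-11). So of 2 helicases of 1 family, BLM was higher and WRN lower with dG in U937. EXO1, a long-range resection nuclease, rose in KG1A from 64.2 and 63.8 to 92.8 and 97.2 CPM (0.57 ± 0.044, adjusted p = 1.41e-13), and in U937 it read 79.9 and 78.6 against 78.1 and 76.9 CPM (-0.03 ± 0.044, adjusted p = 0.553). DNA2, the other long-range resection nuclease, rose in KG1A by 0.31 ± 0.046 (adjusted p = 7.55e-07) and fell in U937 (-0.29 ± 0.047, adjusted p = 1.54e-06). RBBP8, also called CtIP, which starts resection, rose in U937 by 0.22 ± 0.040 (adjusted p = 1.1e-05). Of the break sensor, NBN fell in U937 from 160 and 162 to 120 and 117 CPM (-0.45 ± 0.037, adjusted p = 2.79e-13) and RAD50 by 0.24 ± 0.048 (adjusted p = 3.8e-05). The call of RAD50 ended without the second U937 dG library (adjusted p = 0.0504). The KG1A call of NBN (0.08 ± 0.032, adjusted p = 0.0492) held in 1 of 17 settings, and 79.7% of the exon bases of RAD50 are shared with another annotated gene on its strand.

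**Figure D4:**
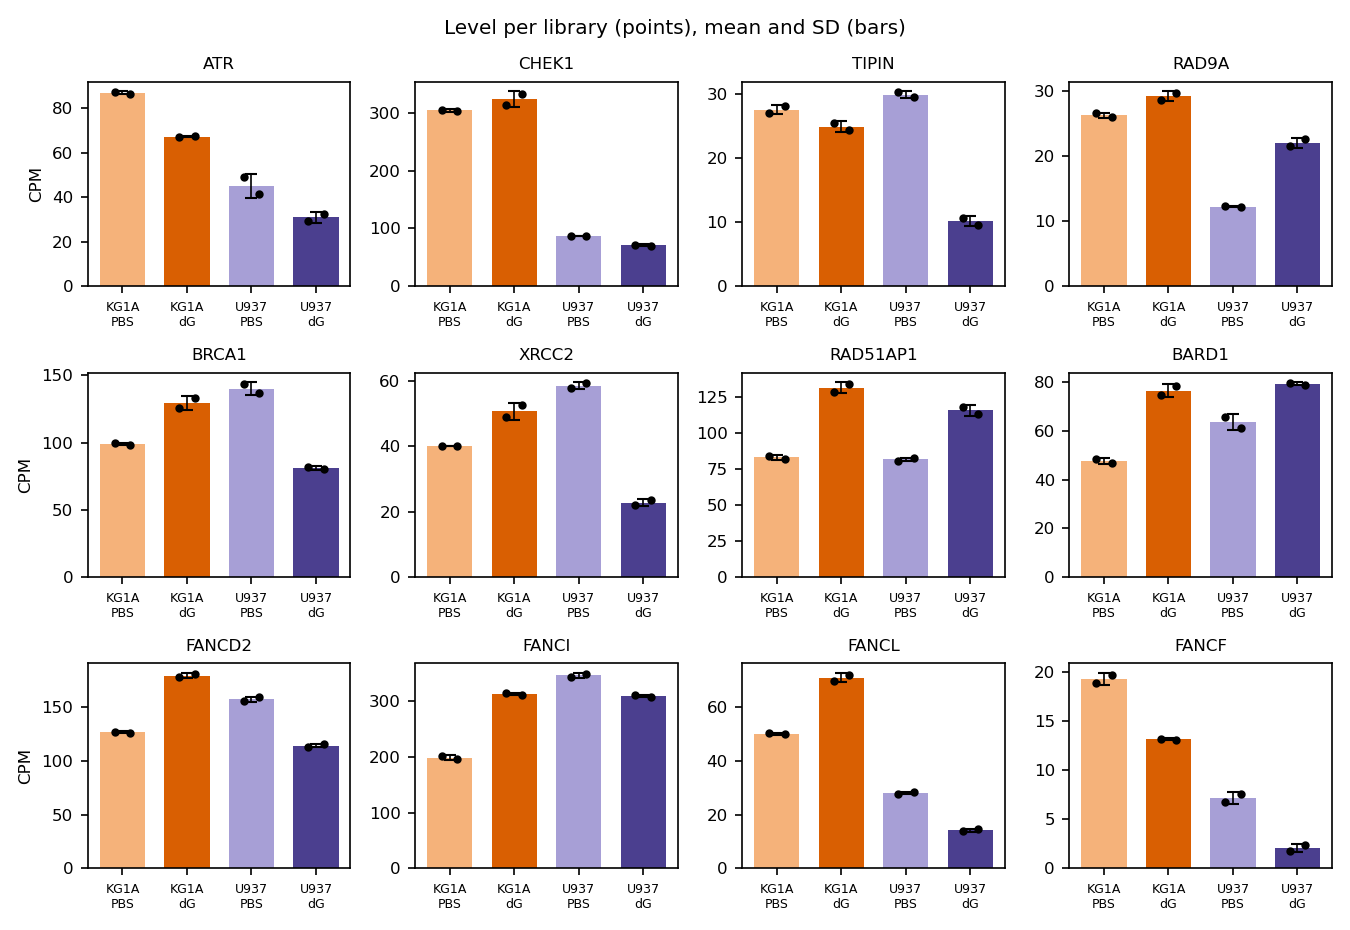
CPM of 12 members in the 4 groups, with bars for the mean of 2 libraries, points for each library and error bars for the SD. BRCA1, FANCD2 and XRCC2 are higher with dG in KG1A and lower with dG in U937, RAD51AP1 and BARD1 are higher in both lines, and ATR and FANCF are lower in both.

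In the Fanconi pathway, FANCD2 and FANCI are the pair that receives ubiquitin. FANCD2 rose in KG1A from 128 and 126 to 178 and 181 CPM (0.50 ± 0.037, adjusted p = 3.19e-14) and fell in U937 from 156 and 159 to 113 and 116 CPM (-0.46 ± 0.038, adjusted p = 2.49e-13). FANCI rose in KG1A from 202 and 196 to 315 and 312 CPM (0.66 ± 0.033, adjusted p = 1.17e-18). In U937 it went from 344 and 350 to 311 and 308 CPM (-0.16 ± 0.032, adjusted p = 3.61e-05). That U937 call ended with DESeq2's size factors (adjusted p = 0.0535) and with the DESeq2 Wald test (adjusted p = 0.0842). It also ended without the second U937 dG library. For both genes the libraries did not overlap in either line, and the interactions were -0.96 ± 0.053 (adjusted p = 1.46e-17) and -0.82 ± 0.046 (adjusted p = 3.55e-17). FANCL, the ligase that attaches the ubiquitin, rose in KG1A from 50.3 and 49.8 to 69.7 and 72.0 CPM (0.50 ± 0.050, adjusted p = 8.1e-11) and fell in U937 from 27.7 and 28.4 to 13.8 and 14.5 CPM (-0.99 ± 0.071, adjusted p = 7.62e-15). Its interaction, -1.49 ± 0.087 (adjusted p = 9.08e-17), was the second most negative of all members, and 19.7% of its exon bases overlap genes on the other strand. UBE2T, the conjugating enzyme that works with FANCL, rose in both lines, from 50.6 and 50.6 to 70.7 and 68.3 CPM in KG1A (0.46 ± 0.048, adjusted p = 3.41e-10) and from 77.0 and 74.3 to 89.6 and 94.96 CPM in U937 (0.28 ± 0.045, adjusted p = 9.34e-07). USP1, which removes the ubiquitin, lay at 305 and 295 against 299.7 and 312 CPM in KG1A (0.03 ± 0.033) and fell in U937 from 276 and 275 to 210 and 206 CPM (-0.40 ± 0.034, adjusted p = 7.06e-13).

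The core complex holds FANCL in place. Of its members, FANCF, the adaptor subunit, gave the largest fall in U937 among the 44 genes. It lay at 18.8 and 19.7 CPM in KG1A with PBS and 13.2 and 13.1 CPM with dG, and at 6.74 and 7.57 CPM in U937 with PBS and 1.81 and 2.33 CPM with dG. All 4 dG libraries were below the PBS libraries of their line. The log2 fold changes were -0.55 ± 0.085 (adjusted p = 9.89e-07) and -1.79 ± 0.16 (adjusted p = 1.4e-12). FANCF is the gene with the fewest reads among the 44, with 42 counts in its lowest library, and 11.3% of its exon bases overlap GAS2 on the other strand. On log2 of RPKM plus 1, a scale that understates changes of low genes, its U937 change was -0.825. FANCE, which touches FANCD2, fell in U937 from 41.5 and 40.3 to 26.6 and 25.3 CPM (-0.66 ± 0.067, adjusted p = 6.45e-11), and in KG1A its libraries overlapped (0.08 ± 0.077, adjusted p = 0.4). FANCC, its neighbour in the complex, changed by -0.34 ± 0.085 in U937 (adjusted p = 0.000584) and -0.02 ± 0.074 in KG1A, and its U937 call was lost in 4 of 17 settings, the DESeq2 Wald test (adjusted p = 0.0508) and the fits to RPKM. FANCA, the largest scaffold, rose in both lines, from 43.8 and 46.4 to 53.6 and 60.3 CPM in KG1A (0.33 ± 0.059, adjusted p = 1.11e-05) and from 40.2 and 44.6 to 46.4 and 50.5 CPM in U937 (0.20 ± 0.062, adjusted p = 0.006). It shares 23.6% of its exon bases with ZNF276 on the other strand. The U937 call of FANCA ended with library size alone (adjusted p = 0.0968) and on RPKM without the filter (adjusted p = 0.0656). It also ended without the first U937 PBS library. FANCG, its partner, rose in KG1A (0.32 ± 0.068, adjusted p = 0.000169) and overlapped in U937 (-0.04 ± 0.070). FANCM, the translocase that brings the complex to DNA, rose from 79.2 and 73.9 to 86.4 and 95.4 CPM in KG1A (0.25 ± 0.049, adjusted p = 5.21e-05) and from 31.4 and 31.6 to 36.4 and 39.1 CPM in U937 (0.26 ± 0.063, adjusted p = 0.0005). Its KG1A call ended in the limma fits to RPKM (adjusted p = 0.0553 with a pseudocount of 1 and 0.0622 with 0.1). On RPKM without the filter, the KG1A calls of FANCA and FANCG ended as well (adjusted p = 0.0712 and 0.0942). Of the 11 Fanconi genes, 7 rose and 1 fell in KG1A (63.6% and 9.09%, all genes: 29.6% and 19.6%). In U937, 3 rose and 7 fell (27.3% and 63.6%, all genes: 32.4% and 31.5%). The interaction was negative and past the threshold for 9 (81.8%, all genes: 26.4%).

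Per kilobase of exon, the members had medians of 11.8 RPKM in PBS in both lines. In KG1A with PBS the highest were USP1 (71.6 RPKM), NBN (58.1), UBE2T (48.3), CHEK1 (47.1) and TOPBP1 (40.6 RPKM), and the lowest was FANCC (2.65 RPKM). In U937 with PBS the highest were UBE2T (70.04 RPKM) and USP1 (63.6 RPKM) and the lowest FANCF (1.65 RPKM). With dG the median was 13.2 RPKM in KG1A and 10.4 RPKM in U937. In PBS, 20 members were higher and 19 lower in U937 than in KG1A, beside 41.4% and 40.8% of all genes, so the lines differed in these genes before treatment about as often as in any. Besides CHEK1, the largest baseline differences were those of FANCF (-1.44 ± 0.094), FANCM (-1.28 ± 0.056), FANCE (1.14 ± 0.068), NBN (-1.12 ± 0.034) and RAD9A (-1.10 ± 0.074).

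Other genes of these pathways were counted from wider lists. As a background for these and the following lists, 29.6% of all genes tested were higher and 19.6% lower in KG1A. In U937 the shares were 32.4% and 31.5%. Of 25 other checkpoint genes, 14 were higher and 3 lower in KG1A and 8 higher and 13 lower in U937 (median log2 fold changes 0.13 and -0.23). CDC25C, the phosphatase that CHEK1 restrains, rose in KG1A by 0.98 ± 0.10 from 7.84 ± 1.1 CPM (SD, n = 2; adjusted p = 5.64e-10). CDC25B, a related phosphatase, rose in U937 from 94.3 ± 1.4 to 244 ± 1.2 CPM (1.37 ± 0.039, adjusted p = 7.55e-27), and RNF168, a ubiquitin ligase at breaks, from 40.3 ± 0.35 to 83.1 ± 0.27 CPM (1.05 ± 0.047). GTSE1 rose in KG1A by 0.61 ± 0.054. Of 34 other recombination genes tested, 19 were higher and 4 lower in KG1A and 7 higher and 15 lower in U937 (medians 0.17 and -0.12). ABRAXAS1 and BABAM2, subunits of the BRCA1-A complex, fell in U937, from 61.9 ± 3.5 to 19.3 ± 0.51 CPM (-1.68 ± 0.063) and from 45.6 ± 1.0 to 20.7 ± 0.60 CPM (-1.13 ± 0.064). ABRAXAS1 rose in KG1A (0.19 ± 0.057). POLQ, the polymerase of microhomology-mediated joining, rose in KG1A (0.57 ± 0.047) and in U937 (0.44 ± 0.045), and MND1, a recombination cofactor, rose in KG1A (0.53 ± 0.070) and fell in U937 (-0.36 ± 0.058). Of 17 other Fanconi-linked genes, 10 were higher and 3 lower in KG1A and 6 higher and 3 lower in U937 (medians 0.16 and 0.05). CENPS, a histone-fold partner of FANCM, fell in U937 from 6.17 ± 0.10 to 2.10 ± 0.53 CPM (-1.57 ± 0.17). Its own partner CENPX fell in both lines (-0.51 ± 0.077 in KG1A and -0.45 ± 0.10 in U937). SLF2 rose in both lines (0.33 ± 0.042 and 0.73 ± 0.041), and SLF1, with which it works, rose in KG1A (0.41 ± 0.069) and changed by -0.09 ± 0.062 in U937.

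Most end joining genes fell in both lines. Of 10 tested, 1 was higher and 8 lower in KG1A, and 8 were lower in U937 (medians -0.27 and -0.55). XRCC6, which encodes Ku70, fell from 413 ± 8.3 to 299 ± 2.9 CPM in KG1A (-0.46 ± 0.033, adjusted p = 1.87e-14) and from 327 ± 0.0055 to 162 ± 7.1 CPM in U937 (-1.01 ± 0.035, adjusted p = 4.31e-24). PRKDC, the DNA-dependent kinase of end joining, fell in KG1A by 0.14 ± 0.035 and in U937 by 1.21 ± 0.036, from 1510 ± 114 to 655 ± 1.1 CPM. TDP2, which frees broken ends of trapped topoisomerase, fell in both lines (-0.36 ± 0.050 and -0.30 ± 0.051).

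The S phase list had median log2 fold changes of 0.16 in KG1A and -0.64 in U937, with the signs of the members' medians. Its genes were split in KG1A. The G2/M list rose in both lines. The part of either list in the results was not tested. The 30 S phase genes summed to 5800 to 5846 CPM in KG1A with PBS and 6283 to 6403 CPM with dG, and to 6621 to 6641 CPM in U937 with PBS and 4555 to 4627 CPM with dG. Of them 18 were higher and 8 lower in KG1A (60% and 26.7%, beside 54.5% and 11.4% of the members). Those lower in KG1A included MCM2, MCM5 and MCM6. In U937, 4 were higher and 25 lower, and 28 had a negative interaction past the threshold. POLE, a leading strand polymerase, rose in KG1A by 0.80 ± 0.037 and fell in U937 by 0.45 ± 0.043, and POLA1, the primase-bound polymerase, fell in U937 by 2.10 ± 0.045. GINS2, a subunit of the replicative helicase, fell in both lines (-0.25 ± 0.050 and -1.31 ± 0.065). CCNE2, a G1/S cyclin, rose in both lines (0.80 ± 0.041 and 0.88 ± 0.051). The 25 G2/M genes rose in sum in both lines, from 6455 to 6638 up to 8811 to 8994 CPM in KG1A and from 7770 to 7951 up to 9597 to 9792 CPM in U937. Of them 22 were higher in KG1A and 20 in U937, among them TOP2A (0.68 ± 0.028 and 0.39 ± 0.028), NUSAP1 (0.71 ± 0.032 and 0.39 ± 0.031), CDK1 (0.59 ± 0.034 and 0.66 ± 0.033) and UBE2C (0.67 ± 0.062 and 0.65 ± 0.059). Of 19 p53 targets tested, 6 were higher and 4 lower in KG1A (31.6% and 21.1%, beside 29.6% and 19.6% of all genes), and 13 were higher and 3 lower in U937 (68.4% and 15.8%, beside 32.4% and 31.5%). CDKN1A, the CDK inhibitor p21, rose in KG1A from 0.921 ± 0.045 to 3.61 ± 0.72 CPM (1.98 ± 0.22, adjusted p = 8.97e-10) and in U937 from 3.08 ± 0.30 to 22.8 ± 0.74 CPM (2.88 ± 0.12, adjusted p = 2.9e-22). AEN, an apoptosis-linked nuclease, fell in both lines (-0.37 ± 0.069 and -1.65 ± 0.088). GADD45A (0.64 ± 0.075 and 0.57 ± 0.095) and DDB2 (0.64 ± 0.069 and 0.24 ± 0.060) rose in both.

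**Figure D5:**
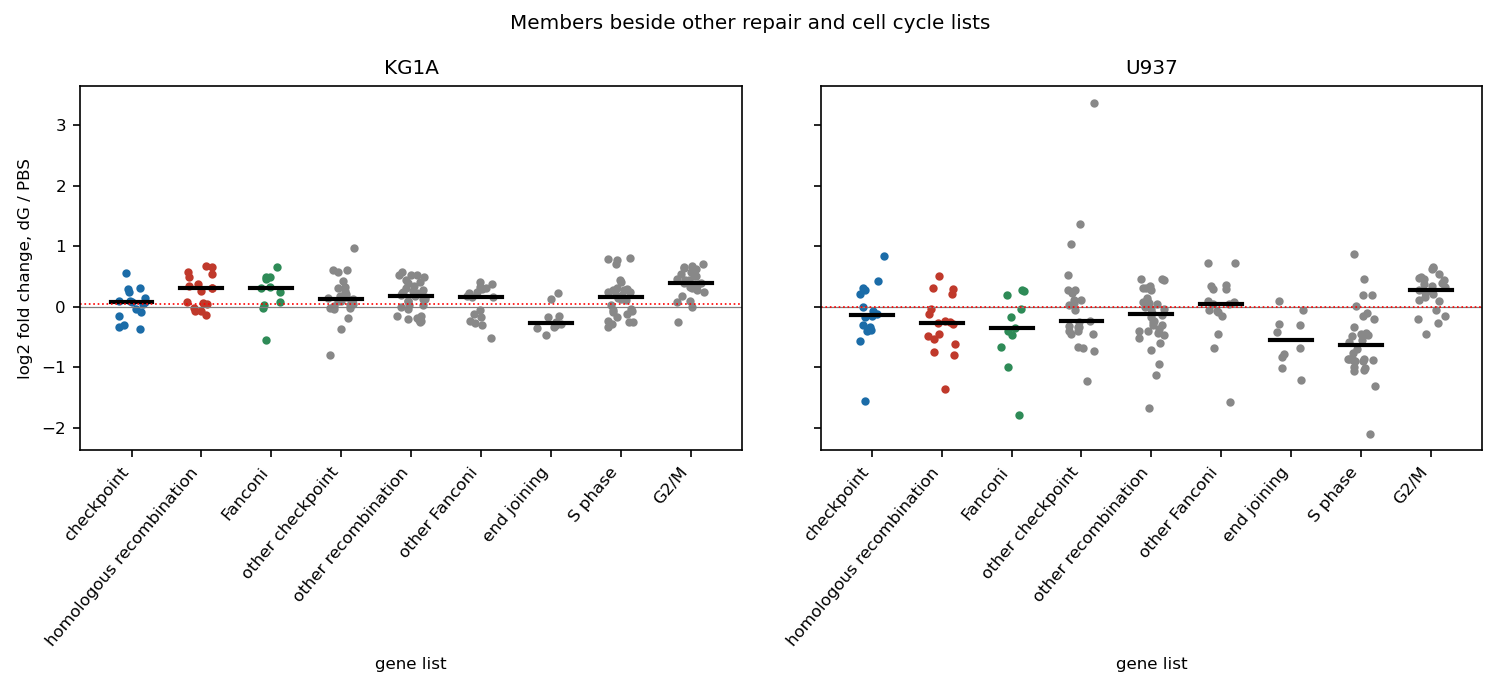
Log2 fold change of dG over PBS (y axis) for each tested gene of the 3 member classes (coloured) and of 6 other lists (grey), in KG1A and U937, with black bars at the medians and a dotted line at the median of all genes. The recombination and Fanconi medians lie above the dotted line in KG1A and below it in U937, as the S phase median does, while the G2/M median is above it in both lines and the end joining median below it in both.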

How the data were processed

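RNA of KG1A and U937 cells in PBS or 10 mM dG was sequenced in 8 libraries, 2 per group, grouped by their titles. The deposited table holds whole-number counts per gene, with identifiers, coordinates and exon lengths, which the authors made with tools that the submitters' processing notes name as bcl2fastq 2.18.0.12, TopHat2 and HTSeq 0.11.2, on hg38. Not given in the sources used here are the annotation release, the strand setting and how reads in overlapping genes were handled, so values of overlapping genes are uncertain. The authors' deposited RPKM equalled counts per kilobase of exon and per TMM-scaled library size.

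Counts were tested with edgeR 4.0.16 (R 4.3.3): filterByExpr, TMM, quasi-likelihood F test, two-sided, 1 mean per group over all 8 libraries, 4 residual degrees of freedom, Benjamini-Hochberg adjustment over 18314 genes, threshold 0.05. The contrasts were dG against PBS in each line, the difference of these effects, and U937 against KG1A in PBS. CPM are TMM-scaled, and 1 count equalled 0.0314 to 0.0485 CPM. The test was checked on simulated counts in which a small set of genes changed, equally up and down, by the same folds in both lines. A far larger share of genes passed in the data, so this check cannot judge the choice of scaling. Alternatives used other scaling, DESeq2 1.42.0, no filter, each line alone, the replicate number as a block, limma 3.58.1 on log2 of RPKM plus 1 or 0.1, and each library left out. Overlaps of exons came from GENCODE 29. The members and lists were chosen with earlier results of these data known. Full values were given for up to 3 members with the largest change in each direction per class and line, the 5 largest differences each way, and ATR, CHEK1, BRCA1, BRCA2, FANCD2 and FANCI. From each wider list up to 2 passing genes per line, with mean log2 CPM no lower than 2, were named.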

Additional observations from a re-analysis of the deposited data

Results flagged for a closer look

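The effect of dG differed between the lines by the interaction term of the model for 5 members in the positive and 33 in the negative direction (edgeR's quasi-likelihood test). The genes with full values are listed here with the U937 effect minus the KG1A effect on the log2 scale. Among recombination genes it was -1.70 for XRCC2, -1.17 for BRCA1, -0.725 for WRN, -0.602 for EXO1, -0.524 for BRCA2, -0.474 for XRCC3, -0.368 for BARD1, -0.255 for BLM, -0.157 for RAD51AP1 and 0.173 for RBBP8. Among Fanconi genes it was -1.49 for FANCL, -1.24 for FANCF, -0.964 for FANCD2, -0.819 for FANCI, -0.739 for FANCE and -0.175 for UBE2T. Among checkpoint genes it was -1.41 for TIPIN, -0.672 for CHEK2, -0.45 for MDC1, -0.386 for CHEK1, -0.371 for CLSPN, 0.239 for WEE1, 0.303 for TP53BP1, 0.697 for RAD9A and 0.733 for HUS1. BARD1, BLM, RAD51AP1 and UBE2T rose in both lines, with the lower fold change in U937. Of these, the difference of UBE2T passed in 3 and that of RAD51AP1 in 4 of 16 alternative settings. That of BLM did not pass without the filter (adjusted p = 0.134) or without either U937 dG library (0.161 and 0.0791), and that of RBBP8 did not pass without the second KG1A PBS library (0.0959) or the second U937 PBS library (0.0511).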

How the results depend on the processing

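The lowest count of a tested member in a library was 42. Of the 29, 39 and 38 members past the threshold in KG1A, U937 and the difference, 20, 30 and 26 passed in every setting tried. The count of higher members in KG1A ranged from 17 to 24, of lower members in U937 from 21 to 30 and of negative differences from 23 to 33. The count of lower members in KG1A was 8 with library size alone and 3 to 8 when 1 library was left out: 3 without the first KG1A PBS library and 8 without either U937 dG library. Lower checkpoint genes in KG1A numbered 5 with library size alone, no filter, each line alone or RPKM with either pseudocount, and 2 to 5 with 1 library left out. Lower recombination genes in KG1A numbered 2 with library size alone and 0 with the DESeq2 Wald test (XRCC3, adjusted p = 0.141), with 0 to 2 when 1 library was left out. Higher Fanconi genes in KG1A numbered 4 on unfiltered RPKM. The KG1A median was 0.0575 with library size alone, 0.0544 without the filter, 0.0621 with the line alone, 0.0484 on RPKM plus 1 with or without the filter and 0.0535 with a pseudocount of 0.1, and 0.0556 to 0.155 with 1 library left out. The U937 median was -0.146 with DESeq2's size factors, -0.31 with library size alone, -0.147 in DESeq2, -0.176 without the filter or with a pseudocount of 0.1, -0.162 on RPKM plus 1 with or without the filter, and -0.24 to -0.139 with 1 library left out. The RAD51AP1 difference ran from -0.191 to 0.00544 with 1 library left out, the latter without the second U937 dG library. The cause was not tested.

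Same-numbered replicates showed no shared deviation (correlation of deviations -0.0772 in KG1A and 0.0242 in U937). Such values cannot show whether libraries of the same number were handled together. With the replicate block, 22 members were higher and 4 lower in KG1A, 12 and 27 in U937, and 5 and 31 in the difference, and 0 recombination genes were lower in KG1A (XRCC3, adjusted p = 0.0528).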

Other observations

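In 15 of these genes a tested gene on the other strand starts within 1000 bases, which gave 16 pairs. Distances run between the outermost start sites of the genes. Of the pairs, 5 moved the same way past the threshold in KG1A and 3 moved in opposite ways, and in U937 the numbers were 4 and 5. In the other pairs, 8 in KG1A and 7 in U937, 1 or no gene passed. The share over all such pairs was not counted, so no concordance is read from these numbers. ATM and its head-to-head neighbour NPAT, a regulator of histone transcription, rose together in both lines (NPAT by 0.25 ± 0.041 and 0.16 ± 0.058). The 5 pairs that moved in opposite ways in U937 were RAD51C, which fell, with TEX14, 518 bases away (1.44 ± 0.41), XRCC3, which fell, with ZFYVE21, 226 bases away (0.63 ± 0.080), FANCD2, which fell, with CIDECP, 49 bases away (0.75 ± 0.14), RAD51AP1, which rose, with C12orf4, 290 bases away (-0.64 ± 0.067), and FANCM, which rose, with FKBP3, 621 bases away (-0.57 ± 0.049). In KG1A the 3 opposite pairs were XRCC3 with ZFYVE21 (0.42 ± 0.071), CHEK2, which rose, with HSCB (-0.31 ± 0.12), and RMI1, which rose, with HNRNPK (-0.25 ± 0.031). TIPIN fell steeply in U937, while MAP2K1, starting 71 bases from its outermost start site, changed by 0.08 ± 0.047. The E2F words shown for TIPIN lie at another start site, in the window chr15:66356636-66356935. Its window near MAP2K1, chr15:66386668-66386967, holds none.

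Over all 10454 tested genes with a promoter window, the 685 with an E2F word had a median log2 fold change of 0.06 in KG1A and -0.07 in U937, beside 0.06 and 0.04 for those without. Among the members the medians with and without a word were 0.31 and 0.09 in KG1A and -0.23 and -0.24 in U937.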
